A study of Mus musculus with 8 samples.

Results

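The response of cultured mouse cortical neurons to 4 h of depolarisation with 55 mM KCl was described across 12732 genes, those with at least 1 FPKM in at least 2 of the 4 Control libraries, of 23830 genes with a value in all libraries. FPKM are fragments per kilobase of transcript, scaled to the mapped fragments of a library, and the values of a gene's transcripts were summed. The comparison was of 2 Control+KCl libraries with 2 Control libraries, paired by their replicate number. The study also holds 2 Rem2 KO and 2 Rem2 KO+KCl libraries, used here for the shared estimate of spread and for 1 comparison of responses.

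The neurons came from the cortex at embryonic day 16.5 and were kept for 6 days in Neurobasal medium with B27 supplement. Every culture, unstimulated ones included, was silenced overnight with 1 µM tetrodotoxin, which blocks voltage-gated sodium channels and so action potentials. The genotype label reads Rem2 flx/flx for the Control and the Rem2 KO libraries alike, and the source of Cre, the recombinase that would remove the flanked exons, is not given in the sources used here. By that label the Control neurons carry the flanked Rem2 alleles. The series' design calls the replicates biological and does not say whether they were separate animals or cultures, so the p-values below measure only the spread between these libraries.

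High extracellular potassium depolarises the membrane directly and opens voltage-gated calcium channels. The calcium that enters activates kinases and phosphatases that act on transcription factors already bound in the nucleus, among them CREB, SRF and MEF2. These switch on early genes without new protein synthesis, many of which encode further transcription factors, and a later wave encodes secreted peptides, growth factors, receptors and synaptic proteins. CREB binds a palindromic site called the cyclic AMP response element, or CRE.

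The FPKM sums of the 8 libraries were 435544 to 474624, and 11949 to 12717 genes reached 1 FPKM in a library. The number of reads per library is unknown from these values. The libraries numbered 1 and 2 stood apart in every group, since the first principal component (51.6% of the variance) separated the numbers and the second (34.0%) separated KCl from no KCl. Neuronal markers were present, with Neurod6 at 177 and 243 FPKM and Gad1 at 56.0 and 45.8 FPKM in the Control libraries. Markers of astrocytes and radial glia were present too, and 6 such markers summed to 1467 and 1614 FPKM in Control against 1300.3 and 1774 FPKM with KCl. In a mixed culture, fewer cells of a type and less RNA per cell cannot be told apart.

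KCl raised 1898 genes (14.9% of those tested) and lowered 4518 (35.5%) at an adjusted p under 0.05 (limma with a term for the replicate number, Benjamini-Hochberg adjustment over all genes tested), 50.4% in all. The remaining 6316 genes did not pass. Changes are given as log2 of FPKM + 1, which understates the change of genes of low level. Past an added limit of 2-fold in FPKM + 1, 314 genes rose (2.47%) and 553 fell (4.34%), together 6.81%. Without the replicate term 681 genes rose and 1635 fell (18.2% in all), and 264 and 493 of them passed 2-fold as well.

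The largest changes were rises, of which 21 of the 314 past 2-fold were microRNA or small nucleolar entries, whose FPKM are unreliable. A log2 change of at least 2 was reached by 78 rises and 14 falls, and a log2 change of at least 3 by 33 rises and 6 falls. The latter 6 falls were Cmc1, Ric3, Fam13c, Agbl5, Tmco6 and Brip1os, each listed at 0 in both KCl libraries. Rises listed at 0 in both Control libraries, such as Ttc19, are counted as well. An exact 0 can be a failed estimate. Of the 867 genes past 2-fold, 867 moved the same way in both replicate pairs, and 312 of the 314 rises and 549 of the 553 falls had groups of libraries that did not overlap, against 17.9% and 40.0% of all genes tested. The 867 were selected by a paired fit and the size of change in these same libraries. Such agreement was therefore largely built in and is no separate check. Both replicate pairs alone reached 2-fold for 261 of the rises and 397 of the falls.

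The balance between rises and falls depended on the scale. The median gene changed by -0.14 on the deposited scale. Scaling by a trimmed mean of ratios moved the changes by a median of 0.16 over the genes, and quantile normalization by a median of 0.15. The shift was not the same for each gene: quantile normalization took Klf9 from 2.05 to 2.25 and Syt4 from 1.16 to 1.05. Rises made up 29.6% of the calls on the deposited scale and 45.5% after quantile normalization (2787 and 3333), and trimmed-mean scaling gave 3179 rises and 3179 falls. Past 2-fold, 36.2% of the calls were rises on the deposited scale, 59.4% with trimmed-mean scaling (442 and 302) and 63.7% with quantile normalization (423 and 241). Some lists below hold tested genes under 1 FPKM in both libraries of 1 group. Such genes entered the test only through the other group, so for those lists the counts over the remaining members follow. Genes that reached 1 FPKM in only 1 library of a group also needed the other group to enter, and they stay in all list counts. The counts of every list stand beside the shares of all genes tested, of which 14.9% rose and 35.5% fell as deposited.

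**Figure D1:**
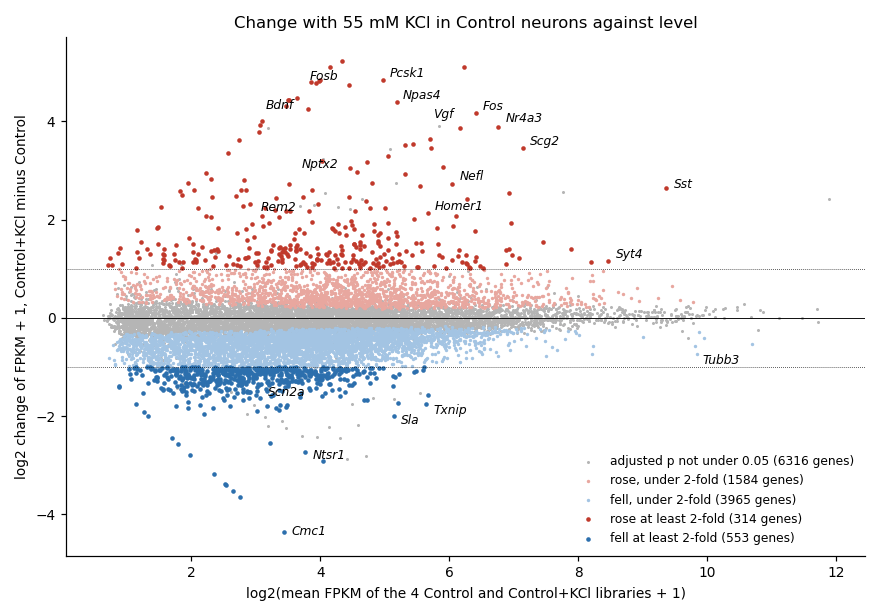
Each point is a gene, placed by its mean level over the 4 libraries (x axis, log2 of FPKM + 1) and its change with KCl in Control (y axis, log2 of FPKM + 1), coloured by the limma call. Dotted lines mark 2-fold. Among named genes above 0 in all 4 libraries, the largest rise was Pcsk1 at 4.83 and the largest fall Ntsr1 at -2.72. Genes listed at 0 in 1 group can lie further out, such as Mir670 at 5.23 and Cmc1 at -4.36. Falls are more numerous than rises over all genes.

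Genes of low and middle level made up most of the calls past 2-fold. Among 2718 genes with a Control mean of 1 to 5 FPKM, 2.87% rose and 4.42% fell at least 2-fold. At 5 to 20 FPKM the shares were 2.56% and 6.69% of 5086 genes. Among 781 genes of 100 FPKM or more, 0.512% rose and 0 fell past 2-fold, and their median change was 0.02. The 245 genes under 1 FPKM in Control, of which 56 rose past 2-fold, entered the test through at least 1 KCl library, so their share is not read as a result.

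The 20 largest rises among named genes above 0 in all 4 libraries were led by transcription factors and by the machinery of peptide secretion. Pcsk1, the protease prohormone convertase 1 that cuts peptide precursors in secretory granules (chromosome 13, 75089420 to 75134861 in GRCm38), went from 1.05 and 1.19 FPKM in Control to 52.7 and 67.1 FPKM with KCl. Both KCl libraries stood far above both Control libraries. The log2 change was 4.83 (SE 0.10, adjusted p = 1.62e-06), the largest of the 20, and the ratio of the mean FPKM was 53.4.

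Of the AP-1 factors, which bind DNA as pairs of Fos and Jun family proteins, 7 of 9 tested rose and 0 fell (6 rose without the replicate term, 8 after trimmed-mean scaling). Fosb was at 1.08 and 0.092 FPKM in Control and at 53.1 and 29.1 FPKM with KCl. Fosb, with 1 Control library under 1 FPKM, entered the test only with its KCl libraries, so its rise is not read as a result. Fos itself was at 7.61 and 8.33 FPKM and then at 154 and 169 FPKM, a log2 change of 4.18 (SE 0.11, adjusted p = 2.73e-06). Fosl2 rose by 3.45 and Junb by 2.93 on the log2 scale, and Maff, a small Maf protein that pairs with AP-1 factors, by 2.20. Jun, the usual partner of Fos, did not pass: its 61.7 and 36.4 FPKM in Control and 47.9 and 33.3 FPKM with KCl overlapped. Jun passed as a fall without Control replicate 2 (log2 change -0.42, adjusted p = 0.0212) and in a fit of the 4 Control libraries alone (adjusted p = 0.0435).

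The Nr4a orphan nuclear receptors, early genes that bind DNA without a known natural ligand, rose in 3 of 3 cases. Nr4a3 went from 14.96 and 10.7 to 209 and 192 FPKM, Nr4a1 from 7.64 and 5.83 to 111 and 80.1 FPKM, and Nr4a2 from 10.0 and 10.3 to 57.6 and 46.1 FPKM. Their log2 changes were 3.88, 3.64 and 2.24, with the groups of libraries wide apart in each.

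Egr and Nab genes were less uniform. Egr4 went from 1.43 and 0.213 to 13.3 and 9.10 FPKM (log2 change 2.81, SE 0.14, adjusted p = 5.24e-05). Egr4, with 1 Control library under 1 FPKM, entered the test only with its KCl libraries, so its rise is not read as a result. Egr3 rose from 3.18 and 2.80 to 8.57 and 7.85 FPKM. Nab1, a corepressor of Egr proteins, rose by 1.30. Egr1, a zinc finger factor widely used as a mark of recent activity, did not pass, with 25.1 and 19.3 FPKM in Control and 15.7 and 21.0 FPKM with KCl (log2 change -0.26, adjusted p = 0.354). Its call depended on 1 library: without Control replicate 2 it passed as a fall (log2 change -0.68, adjusted p = 0.0125). Of 6 tested, 4 rose and 0 fell.

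Among 33 other inducible nuclear factors 17 rose and 6 fell (10 and 2 without the replicate term, 20 and 3 after trimmed-mean scaling). Over the 32 that reached 1 FPKM in both groups 17 rose and 5 fell. Npas4, a bHLH-PAS factor specific to neurons and switched on by calcium, went from 3.23 and 1.54 to 75.0 and 61.9 FPKM, a log2 change of 4.40 (SE 0.13, adjusted p = 6.48e-06). Crem, whose short products repress CRE-dependent transcription, went from 6.88 and 5.58 to 44.1 and 50.7 FPKM. Nfil3, a repressor with a basic leucine zipper, reached 128 and 132 FPKM from 27.1 and 20.5 FPKM. Sertad1, Csrnp1 and Klf9 rose by 2.18, 2.05 and 2.05. Csrnp1, with 1 Control library under 1 FPKM, entered the test only with its KCl libraries, so its rise is not read as a result. The falls included Myc, a driver of growth, from 27.7 and 25.7 to 17.1 and 17.5 FPKM, and Id2, an inhibitor of bHLH factors, from 119 and 153 to 82.1 and 75.3 FPKM (adjusted p = 0.0528 without Control+KCl replicate 2).

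**Figure D2:**
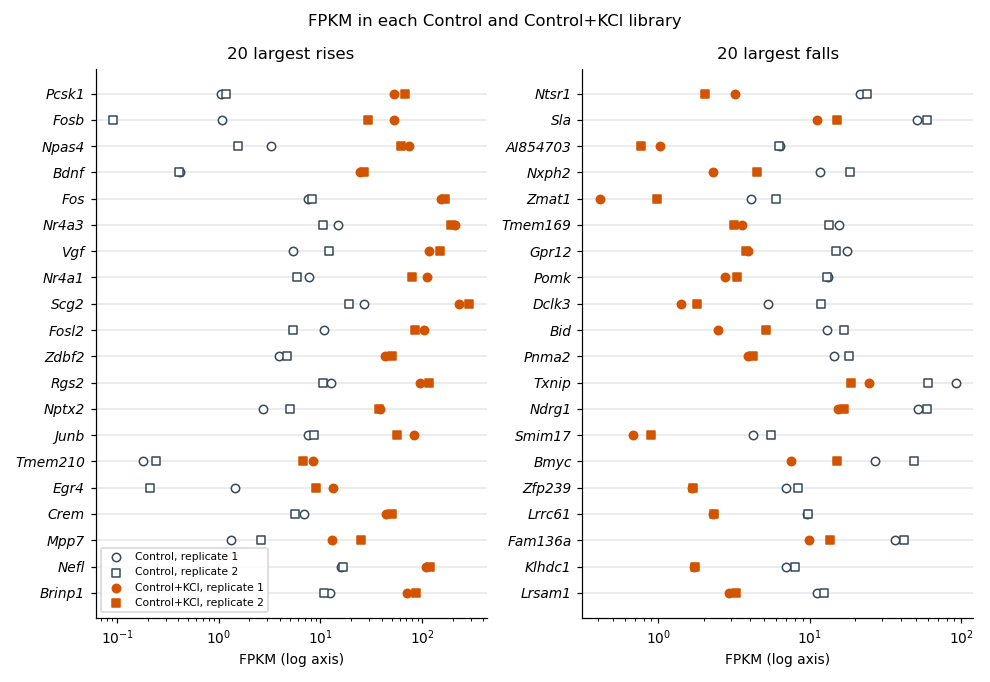
FPKM (x axis, log scale) of the 20 genes with the largest rises and the 20 with the largest falls, in each of the 2 Control (open) and 2 Control+KCl (filled) libraries, with circles for replicate 1 and squares for replicate 2. In none of the 40 rows, chosen by the size of the change in these libraries, do the filled and open symbols overlap.

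Genes that switch off kinase signalling rose with the early factors. Of 18 dual-specificity phosphatases, which inactivate MAP kinases, and Sprouty and Spred genes, which dampen signalling from growth factor receptors, 15 rose and 2 fell (6 and 0 without the replicate term, 16 and 2 after trimmed-mean scaling). Dusp4 rose from 6.53 and 11.2 to 41.0 and 46.7 FPKM, Dusp1 from 16.0 and 12.998 to 33.6 and 30.8 FPKM, and Spry2 from 18.8 and 24.9 to 44.6 and 52.96 FPKM. Dusp7 and Dusp2 fell by 0.68 and by 0.95 on the log2 scale, with adjusted p of 0.059 and 0.0593 without the replicate term.

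All 3 salt-inducible kinases, which hold CREB coactivators in the cytoplasm, rose past 2-fold. Sik1 went from 6.90 and 7.43 to 29.98 and 29.1 FPKM, Sik3 from 7.73 and 8.24 to 28.3 and 29.5 FPKM, and Sik2 from 7.67 and 10.3 to 28.4 and 33.7 FPKM. Their log2 changes were 1.90, 1.74 and 1.69. In the list of inducible and calcium-dependent kinases, 14 of 28 rose and 5 fell (8 and 2 without the replicate term, 17 and 3 after trimmed-mean scaling). Camk2g, a calcium- and calmodulin-dependent kinase, was among the falls, from 35.3 and 42.1 to 22.8 and 27.2 FPKM.

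Regulators of G protein signalling, which speed the shut-off of G proteins, rose in 7 of 16 cases and fell in 4 (5 and 1 without the replicate term, 9 and 3 after trimmed-mean scaling). Rgs2 rose from 12.7 and 10.6 to 96.1 and 116 FPKM, a log2 change of 3.08 (SE 0.12, adjusted p = 2.15e-05). Rgs4 went from 19.4 and 13.5 to 58.7 and 80.6 FPKM and Rgs10 from 8.98 and 10.3 to 24.8 and 32.1 FPKM.

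The RGK proteins are small GTPases that lower the current of voltage-gated calcium channels, and Rem2 and Gem rose. Rem2, the gene the study targets (chromosome 14, 54476100 to 54480434), was at 6.29 and 2.54 FPKM in Control and 22.5 and 21.4 FPKM with KCl, a log2 change of 2.18 (SE 0.25, adjusted p = 0.000548). In the Rem2 KO libraries it was listed at 2.13 and 1.70 FPKM without KCl and at 11.7 and 12.4 FPKM with KCl, so reads were still assigned to Rem2 there. Gem rose from 2.25 and 2.59 to 4.78 and 4.71 FPKM (adjusted p = 0.0587 without Control+KCl replicate 1). Rrad entered the test only through its KCl libraries, so its rise is not read as a result. It was near 1 FPKM, with 0.689 and 0.424 and then 1.32 and 1.16 FPKM, and its call was lost without the replicate term (adjusted p = 0.105).

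Peptide precursors and the proteins that process them were among the most strongly changed secreted products. Of 17 neuropeptide precursors 10 rose and 1 fell (7 and 0 without the replicate term). Of these, 3 were under 1 FPKM in both Control libraries, and of the other 14 members 7 rose and 1 fell. Sst, which encodes somatostatin, a peptide of inhibitory interneurons, went from 220 and 145 to 998 and 1269 FPKM, the largest rise of any gene in FPKM. Its log2 change was 2.65 (SE 0.24, adjusted p = 0.000256). Tac1, the precursor of substance P, went from 0.798 and 1.13 to 11.2 and 8.67 FPKM, and Cort, which encodes the somatostatin relative cortistatin, from 3.30 and 1.17 to 16.6 and 14.5 FPKM. Crhbp, which binds corticotropin-releasing hormone, went from 0.244 and 0.171 to 3.38 and 3.24 FPKM. Crhbp entered the test only through its KCl libraries, so its rise is not read as a result. Adcyap1, which encodes PACAP, was at 1.45 and 0.28 FPKM and then at 15.5 and 6.00 FPKM, with an adjusted p of 0.0666 without the replicate term. Tac1 and Adcyap1 each had 1 Control library under 1 FPKM. They entered the test only with their KCl libraries, so their rises are not read as results either. Npy at 77.7 and 55.3 and then 85.3 and 94.8 FPKM, and Vip at 3.91 and 2.87 and then 3.71 and 1.23 FPKM, did not pass. Npy passed as a rise after trimmed-mean scaling (log2 change 0.62, adjusted p = 0.0133) and without Control replicate 1 (0.76, adjusted p = 0.00429), and Vip as a fall without Control+KCl replicate 1 (-0.84, adjusted p = 0.00909).

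Beside Pcsk1, the granule proteins Vgf and Scg2 and the amidating enzyme Pam rose. Vgf, the precursor of several secreted peptides, went from 5.38 and 12.1 to 116 and 151 FPKM (log2 change 3.87, SE 0.24). Scg2, or secretogranin II, went from 26.7 and 18.9 to 231 and 288 FPKM, and Pam from 20.1 and 31.0 to 93.6 and 126 FPKM. Pcsk5, a related convertase, went from 1.95 and 1.30 to 3.53 and 2.84 FPKM (adjusted p = 0.00477, and 0.0542 without the replicate term). Of those that did not pass, Pcsk2 was at 24.1 and 24.7 FPKM in Control and 21.5 and 25.5 FPKM with KCl, and Chga at 60.8 and 60.7 and then 60.1 and 72.7 FPKM. Chga passed as a rise after trimmed-mean scaling (adjusted p = 0.0187). In all, 5 of the 17 rose and 0 fell, and 11 rose after trimmed-mean scaling. The median change was 0.15, against -0.14 over all genes tested.

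Interneuron genes that make and load GABA, the main inhibitory transmitter, rose as well. Gad1, a GABA-synthesising enzyme, went from 56.0 and 45.8 to 190 and 201 FPKM (log2 change 1.93, SE 0.13, adjusted p = 0.000103), and Gad2 from 13.4 and 15.3 to 40.01 and 46.1 FPKM. Slc32a1, the vesicular GABA transporter, was at 27.0 and 19.2 and then 47.1 and 34.4 FPKM, with an adjusted p of 0.063 without the replicate term. In all 5 of 6 interneuron markers rose and 1 fell (2 and 0 without the replicate term). Dlx1, a factor of interneuron development, was at 32.0 and 45.6 and then 40.6 and 52.5 FPKM, groups that overlap, with an adjusted p of 0.666 without the replicate term. Lhx6, a factor of interneurons that express somatostatin or parvalbumin, fell from 27.9 and 39.2 to 20.8 and 25.9 FPKM (adjusted p = 0.00261 with the replicate term and 0.304 without it). The 6 markers summed to 181.6 and 184.3 FPKM in Control against 375.6 and 386.4 FPKM with KCl. Of 7 excitatory neuron markers 6 rose and 0 fell (1 and 0 without the replicate term). Whether the number of interneurons differed was not tested.

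Among 44 secreted growth factors 13 rose and 7 fell (4 and 3 without the replicate term, 18 and 7 after trimmed-mean scaling). Over the 41 that reached 1 FPKM in both groups 11 rose and 6 fell. Bdnf, the neurotrophin that acts through the receptor TrkB, was at 0.417 and 0.404 FPKM in Control and 24.5 and 26.9 FPKM with KCl. The log2 change was 4.24 (SE 0.11) and the ratio of the mean FPKM was 62.7. Bdnf entered the test only through its KCl libraries, so its call is not read as a result. Nrn1, or neuritin, a surface-anchored factor that promotes neurite growth, went from 7.36 and 8.52 to 40.5 and 28.6 FPKM. Wnt7a fell from 10.7 and 13.02 to 6.86 and 7.73 FPKM and Fgf18 from 2.02 and 1.78 to 0.419 and 0.420 FPKM. Fgf18 entered the test only through its Control libraries, so its fall is not read as a result. Of 31 growth factor receptors 10 rose and 5 fell (2 and 2 without the replicate term, 13 and 2 after trimmed-mean scaling). Ntrk2, which encodes TrkB, rose from 104 and 119 to 184 and 209 FPKM, and Met, the receptor of hepatocyte growth factor, fell from 18.5 and 25.1 to 7.56 and 10.8 FPKM.

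Synaptic organisers, the surface and secreted proteins that join the sides of a synapse, rose in 15 of 51 cases and fell in 9 (8 and 2 without the replicate term, 21 and 5 after trimmed-mean scaling). Over the 50 that reached 1 FPKM in both groups 15 rose and 8 fell. Nptx2, a secreted pentraxin that gathers AMPA receptors, went from 2.73 and 5.00 to 38.7 and 38.0 FPKM, a log2 change of 3.06 (SE 0.24, adjusted p = 0.000186). Pcdh8, a cadherin relative also named arcadlin, rose from 39.96 and 34.7 to 143 and 118 FPKM, and Lrrc4 from 13.8 and 14.3 to 38.4 and 48.9 FPKM. Cbln1, a secreted bridge between neurexins and delta receptors, fell from 22.6 and 20.04 to 8.39 and 6.22 FPKM.

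At the postsynaptic side, 8 of 27 scaffolds rose and 6 fell (4 and 2 without the replicate term, 11 and 6 after trimmed-mean scaling). Homer1 rose from 17.1 and 18.9 to 78.8 and 85.6 FPKM. Arc, an early gene whose product removes AMPA receptors from synapses, was low in both groups, at 0.859 and 1.27 and then 2.47 and 2.48 FPKM (log2 change 0.76, adjusted p = 0.0081). Arc, with 1 Control library under 1 FPKM, entered the test only with its KCl libraries, so its rise is not read as a result. Its call was lost without the replicate term (adjusted p = 0.126) and without Control+KCl replicate 1 (0.0674). Dlg4, which encodes PSD-95, had a log2 change of 0.02 and did not pass.

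Calls among AMPA, NMDA and kainate receptors were close to the background of all genes, and those among metabotropic glutamate receptors were not. Of 26 AMPA, NMDA and kainate receptor subunits and partners 4 rose and 9 fell (34.6% of them against 35.5% of all genes), and 6 rose and 7 fell after trimmed-mean scaling. The AMPA receptor partner Shisa9 fell from 20.9 and 21.1 to 9.70 and 8.02 FPKM, and the subunit Gria1 from 47.2 and 45.8 to 35.3 and 32.8 FPKM. The obligatory NMDA receptor subunit Grin1 rose from 36.3 and 38.8 to 59.5 and 68.5 FPKM. Of the 7 metabotropic receptors, which act through G proteins, 6 fell (85.7%, against 35.5% of all genes) and 1 rose, also after trimmed-mean scaling. Without the replicate term 2 fell. Grm5 fell from 32.7 and 36.4 to 22.2 and 20.5 FPKM, while Grm2, a presynaptic receptor that lowers release, rose from 4.36 and 4.02 to 11.3 and 13.8 FPKM.

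Channels that carry depolarising current fell or did not pass, with few rises. Of 8 sodium channel subunits 5 fell (62.5%, against 35.5% of all genes tested) and 0 rose as deposited. After trimmed-mean scaling 5 fell and 1 rose, and without the replicate term 4 fell and 0 rose. Scn2a, the main channel of young excitatory axons, fell from 18.2 and 24.2 to 7.69 and 7.78 FPKM, a log2 change of -1.34 (SE 0.10, adjusted p = 0.000164). The auxiliary subunit Scn2b fell from 5.44 and 3.93 to 1.67 and 1.18 FPKM. Among 15 voltage-gated calcium channel subunits 7 fell and 1 rose (3 and 0 without the replicate term, 6 and 1 after trimmed-mean scaling). The falls were 46.7% of the list against 35.5% of all genes tested, and the rises 6.67% against 14.9%. Cacna1d, an L-type pore subunit, fell from 8.14 and 7.91 to 3.41 and 2.91 FPKM, and Cacna1i, a T-type pore subunit, from 6.31 and 8.48 to 2.51 and 3.93 FPKM.

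Potassium channels, which repolarise the membrane, split into both directions: 16 of 55 rose and 24 fell (9 and 12 without the replicate term, 18 and 20 after trimmed-mean scaling). These are 29.1% and 43.6% of the list, against 14.9% and 35.5% of all genes tested. Over the 50 that reached 1 FPKM in both groups 15 rose and 20 fell. Kcna1 went from 0.955 and 0.620 to 7.67 and 5.50 FPKM (log2 change 2.08, SE 0.12). It entered the test only through its KCl libraries, so its rise is not read as a result. The inward rectifiers Kcnj4 and Kcnj3 rose by 1.84 and 1.72, from 9.37 and 4.92 to 28.9 and 25.2 FPKM and from 5.22 and 5.21 to 19.5 and 19.5 FPKM. Kcng1, a modifier subunit, fell from 3.91 and 2.73 to 0.603 and 0.530 FPKM, and Kcnh2 from 5.11 and 4.15 to 1.75 and 1.60 FPKM. Kcng1 entered the test only through its Control libraries, so its fall is not read as a result.

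Of the genes for calcium pumps, exchangers and stores, 3 of 17 rose and 8 fell (2 and 5 without the replicate term, 5 and 6 after trimmed-mean scaling). The rises were 17.6% of the list against 14.9% of all genes tested, and the falls 47.1% against 35.5%. Atp2a2, which pumps calcium into the endoplasmic reticulum, rose from 83.5 and 84.8 to 146 and 142 FPKM, and Atp2b1, a plasma membrane pump, from 39.0 and 40.8 to 58.6 and 65.9 FPKM. The related pump Atp2b2 fell from 16.7 and 17.4 to 8.80 and 7.86 FPKM. Atp1b1, a beta subunit of the sodium pump, rose from 240 and 213 to 433 and 443 FPKM.

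Of 36 genes for synaptic vesicles and release 8 rose and 10 fell (3 and 4 without the replicate term, 12 and 8 after trimmed-mean scaling). The rises were 22.2% of the list against 14.9% of all genes tested, and the falls 27.8% against 35.5%. Sv2c, a vesicle protein, went from 1.31 and 1.69 to 10.4 and 12.6 FPKM, a log2 change of 2.32 (SE 0.09). Syt4, a synaptotagmin of dense-core vesicles, rose at a high level, from 230 and 207 to 465 and 511 FPKM, while Syt3 fell from 9.74 and 8.76 to 2.98 and 2.50 FPKM. Receptors for neuromodulators rose in 12 of 34 cases and fell in 9 (11 and 2 without the replicate term, 14 and 8 after trimmed-mean scaling). Over the 28 that reached 1 FPKM in both groups 9 rose and 6 fell. Gpr3, an orphan receptor that raises cyclic AMP, went from 0.550 and 0.508 to 8.16 and 6.65 FPKM, and the somatostatin receptor Sstr2 from 4.60 and 4.44 to 23.8 and 14.2 FPKM. Chrm4, a muscarinic acetylcholine receptor, was listed at 0 in each Control library and reached 6.04 and 4.12 FPKM. Gpr3 and Chrm4 entered the test only through their KCl libraries, so their rises are not read as results.

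The largest fall among named genes above 0 in all 4 libraries was in a receptor. Ntsr1, a neurotensin receptor used as a marker of deep cortical neurons (chromosome 2, 180499976 to 180544979), went from 21.5 and 23.7 to 3.22 and 2.02 FPKM. The log2 change was -2.72 (SE 0.21, adjusted p = 0.000165). Other genes of deep cortical layers went the opposite way: Fezf2 rose from 15.01 and 10.0 to 66.1 and 37.6 FPKM and Tbr1 from 36.8 and 28.7 to 66.4 and 50.2 FPKM, although Tbr1 did not pass without the replicate term. In the deep-layer list 4 of 12 rose and 2 fell (2 and 1 without the replicate term, 7 and 2 after trimmed-mean scaling). The other large falls included Sla, a Src-like adaptor, from 51.2 and 59.6 to 11.2 and 14.99 FPKM, and Nxph2, a neurexin ligand, from 11.7 and 18.5 to 2.31 and 4.49 FPKM. Gpr12, an orphan receptor related to Gpr3, fell from 17.6 and 14.8 to 3.93 and 3.80 FPKM. Txnip, which restrains glucose uptake, fell from 91.6 and 60.6 to 24.4 and 18.6 FPKM, and Ndrg1 from 51.9 and 59.2 to 15.3 and 16.7 FPKM.

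**Figure D3:**
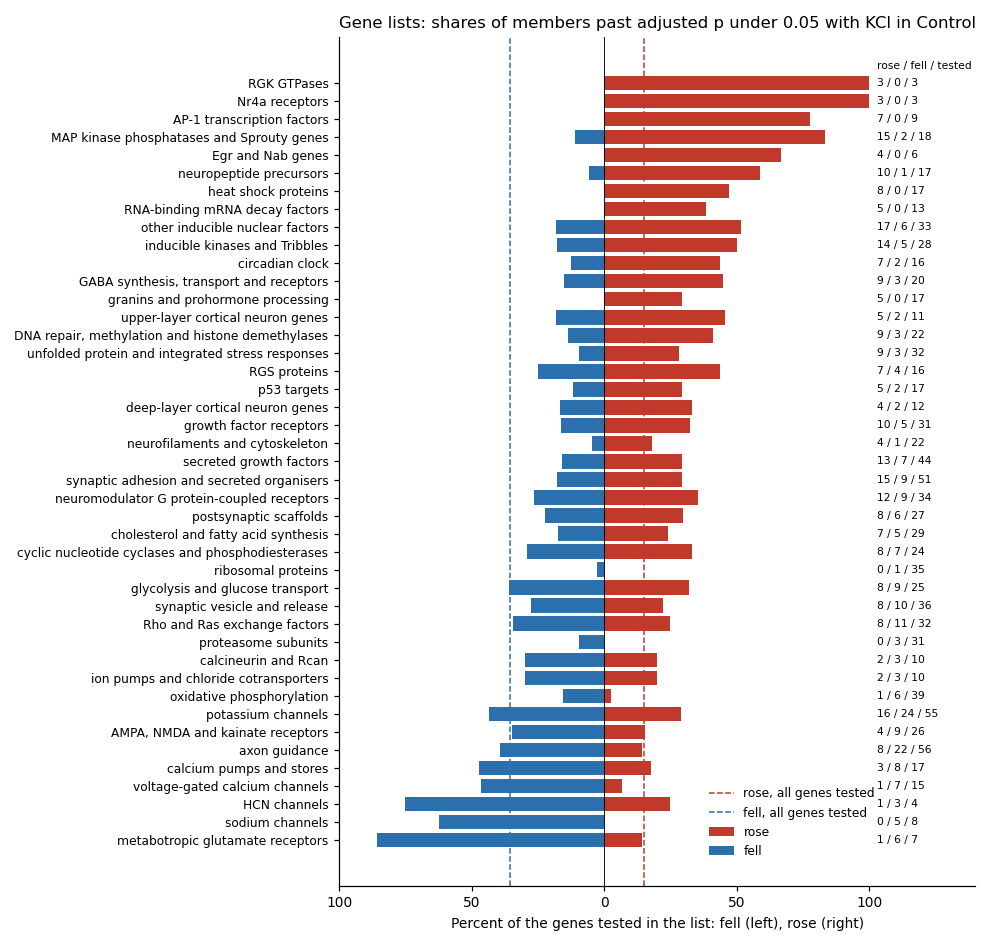
Share of the tested members of each gene list that rose (red, to the right) or fell (blue, to the left) with KCl in Control at adjusted p under 0.05, with counts at the right and dashed lines at the shares of all genes tested (14.9% and 35.5%). Lists of early transcription factors and phosphatases lie far to the right of the red line, most ribosomal, proteasome and respiratory chain genes did not pass, and the sodium, potassium and calcium channel lists lie beyond the blue line.

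Axon guidance genes, which steer growing axons and dendrites, rose in 8 of 56 cases and fell in 22 (3 and 9 without the replicate term, 12 and 14 after trimmed-mean scaling). These are 14.3% and 39.3% of the list, near the 14.9% and 35.5% of all genes tested. Semaphorins accounted for 6 of the falls, and Sema6c went from 34.8 and 33.2 to 18.98 and 15.6 FPKM. The ephrin receptor Epha3 rose from 9.76 and 11.4 to 23.2 and 28.2 FPKM, and Nrp1, a receptor subunit for secreted semaphorins, from 7.62 and 8.67 to 17.3 and 18.0 FPKM.

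Of 25 genes for glucose transport and glycolysis 8 rose and 9 fell (4 and 6 without the replicate term, 12 and 8 after trimmed-mean scaling). The falls were 36.0% of the list, near the 35.5% of all genes tested. Slc2a3, the neuronal glucose transporter, rose from 22.5 and 24.5 to 94.8 and 77.5 FPKM (log2 change 1.82, SE 0.11). Hk1, the hexokinase of brain, fell from 69.9 and 72.5 to 45.0 and 49.9 FPKM. Of 16 clock genes 7 rose and 2 fell (5 and 1 without the replicate term, 9 and 1 after trimmed-mean scaling), and the CREB-responsive repressors Per1 (12.7 and 9.25 to 38.3 and 35.6 FPKM) and Per2 (2.27 and 3.36 to 10.2 and 11.5 FPKM) moved most. Among genes for DNA repair, methylation and chromatin 9 of 22 rose and 3 fell (6 and 1 without the replicate term, 12 and 2 after trimmed-mean scaling), with Hdac9 going from 8.95 and 14.7 to 25.1 and 45.6 FPKM and Gadd45g, a stress protein linked to DNA demethylation, from 24.7 and 26.8 to 74.7 and 61.4 FPKM.

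Of 17 heat shock genes 8 rose and 0 fell (3 and 0 without the replicate term, 14 and 0 after trimmed-mean scaling), and 0 of the rises passed 2-fold. Of 32 genes of the unfolded protein and integrated stress responses 9 rose and 3 fell (2 and 0 without the replicate term, 14 and 2 after trimmed-mean scaling), and 3 of the rises passed 2-fold. Atf4, the factor that leads the second response, was at 198 and 80.2 FPKM in Control, an uneven pair, and at 347 and 321 FPKM with KCl. Its adjusted p of 0.00459 became 0.0898 without the replicate term. Of p53 targets 5 of 17 rose and 2 fell (1 and 2 without the replicate term, 7 and 2 after trimmed-mean scaling), with 2 of each past 2-fold. Cdkn1a, a cell cycle inhibitor, was at 50.6 and 78.6 and then 133 and 204 FPKM, with an adjusted p of 0.0554 without the replicate term. Ribosomal proteins (0 of 35 rose, 1 fell), proteasome subunits (0 of 31 rose, 3 fell) and the respiratory chain (1 of 39 rose, 6 fell) mostly did not pass as deposited. After trimmed-mean scaling the counts were 2 rises and 1 fall, 10 rises and 1 fall, and 11 rises and 3 falls. In the cytoskeleton, the neurofilament Nefl rose from 16.1 and 16.6 to 108 and 118 FPKM, while the neuronal tubulin Tubb3 fell from 1126 and 1172 to 647 and 728 FPKM.

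Of 6 astrocyte and radial glia markers 0 rose and 1 fell as deposited, while 3 rose and 0 fell after trimmed-mean scaling. The fall was in Gfap, at 83.9 and 110.2 FPKM and then at 63.1 and 94.2 FPKM, groups that overlap. It did not pass after trimmed-mean scaling (adjusted p = 0.201), without the replicate term (0.648) or without Control replicate 1 or either Control+KCl replicate. Of 5 progenitor and proliferation markers 3 rose and 0 fell, and 0 rose without the replicate term. Of the microglial (3 tested), endothelial and mural (4 tested) and fibroblast markers (4 tested), 0 rose and 0 fell as deposited. Among 6 markers of the oligodendrocyte lineage 2 fell, among them the myelin gene Mog, from 5.54 and 3.92 to 2.27 and 1.65 FPKM. The microglial marker C1qa differed between the replicate numbers rather than with KCl, at 3.71 and 11.5 FPKM in Control and 3.32 and 11.8 FPKM with KCl.

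The share of each transcript in its gene was tested as a log2 ratio for 3871 transcripts of 2192 genes, and 1 passed (0.0258%), with 470 at an unadjusted p under 0.05. It was the short Homer1 transcript, of 5 exons and 186 residues, widely known as Homer1a, which lacks the coiled coil that links Homer proteins. It was listed at 0 without KCl and reached 61.1 and 65.5 FPKM with it, where it made up 77.6% and 76.5% of the gene. The full-length form of 366 residues was at 14.5 and 16.4 FPKM and then at 17.7 and 20.1 FPKM. The log2 ratio changed by 5.94 (SE 0.283, adjusted p = 0.0124). This short transcript entered the test only through its Control+KCl libraries, so its call is not read as a result. The call was lost when any of the 4 libraries was left out (adjusted p = 0.197 to 0.341) and in a fit of the 4 Control libraries alone (0.398), with 5.84 to 6.05 for the change.

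The Bdnf transcripts were too low in Control for that test and are described only. They share the coding exon and differ in the first exon. The form that starts at base 109692436 of chromosome 2 was listed at 0 without KCl and reached 18.8 and 21.4 FPKM with it, 76.5% and 79.3% of the gene. The form that starts at base 109674700 was at 0 and 0.0426 FPKM and then at 5.77 and 5.58 FPKM. The forms that start at 109693563, 109693027 and 109675897, which held the rest of the Control signal, were listed at 0 with KCl. Nearly all Bdnf signal with KCl was thus assigned to 2 of the annotated starts.

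Of the Ntrk2 transcripts, the form of 821 residues with the kinase domain rose from 45.5 and 49.9 to 125 and 146 FPKM, or from 43.9% and 41.8% to 68.0% and 69.7% of the gene. The truncated form of 476 residues was at 58.2 and 69.5 and then 58.9 and 63.3 FPKM. The change of share did not pass (adjusted p = 0.124). For Scg2 the form of 577 residues went from 33.3% and 33.7% to 67.6% and 70.4% of the gene, and this did not pass either (adjusted p = 0.0886). For both genes the shares in the KCl libraries lay outside those of the Control libraries.

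**Figure D4:**
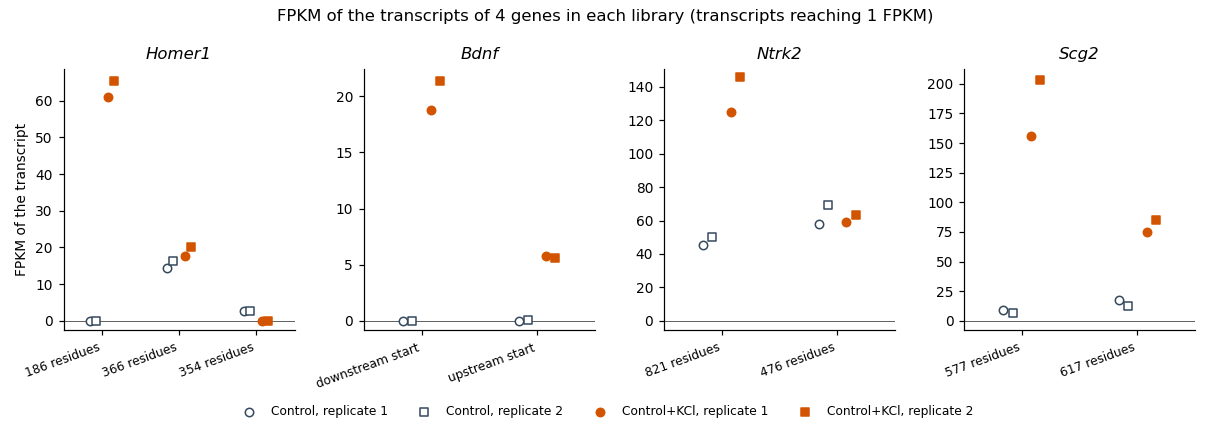
FPKM (y axis) of each transcript that reaches 1 FPKM of Homer1, Bdnf, Ntrk2 and Scg2 in the 2 Control (open) and 2 Control+KCl (filled) libraries, with circles for replicate 1 and squares for replicate 2. The 186-residue Homer1 form and the downstream Bdnf start are listed at 0 without KCl and lead their gene with KCl.

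The promoters of genes that rose more often held a palindromic CRE. The 250 bases before the annotated start were searched on both strands for TGACGTCA in 12932 promoters of 10088 tested genes (RefSeq, GRCm38.p6). It was found in 2.68% of them, in 8.36% of the 287 promoters of genes that rose at least 2-fold (24 promoters, each of another gene) and in 0.89% of the 562 promoters of genes that fell at least 2-fold. The share went from 1.35% of promoters of genes that changed by less than -1.5 to 9.65% of those that changed by 1.5 or more. Across the whole table of 32851 mouse promoters 1.55% held it. With any second base (TNACGTCA) the shares were 4.14% of tested, 11.5% of risen and 1.60% of fallen promoters.

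Of the other motifs searched, the AP-1 site TGACTCA was in 3.14% of the promoters of genes that rose, 3.20% of those that fell and 2.85% of all tested. The NBRE AAAGGTCA, bound by Nr4a receptors, was in 0, 0.356% and 0.75%. The CArG box bound by SRF was in 1.05%, 0.534% and 1.24%. The EGR site GCGTGGGCG was in 2.44%, 0.356% and 1.03%, the same order as the CRE, which is 7 promoters of genes that rose. The median GC content of the windows was 62.0% in genes that rose, 59.6% in those that fell and 60.0% in all tested.

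The CRE windows below, 30 bases each from the coding strand of GRCm38.p6, are shown for 7 genes that rose at least 2-fold, as examples of the palindrome counted above, in order of change. Capitals mark the CRE.
Pcsk1: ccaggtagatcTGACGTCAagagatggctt
Scg2: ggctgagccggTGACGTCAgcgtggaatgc
Zdbf2: cgcaccttcgcTGACGTCAgagctgcagtg
Sst: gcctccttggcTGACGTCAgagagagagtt
Maff: ggctggggcggTGACGTCActgcatgactg
Sstr2: ccaagctgccgTGACGTCAcgggcgggggc
Dusp1: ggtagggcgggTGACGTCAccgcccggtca
The Pcsk1 window lies at chr13:75089768-75089797 on the plus strand and that of Scg2 at chr1:79440076-79440105 on the minus strand. Those of Zdbf2 (chr1:63273199-63273228), Maff (chr15:79347480-79347509) and Sstr2 (chr11:113619258-113619287) are on the plus strand, and those of Sst (chr16:23890874-23890903) and Dusp1 (chr17:26508597-26508626) on the minus strand. The first base of the CRE was 78 bases before the start used for the search in Pcsk1, 68 in Scg2, 59 in Zdbf2, 48 in Sst, 29 in Maff, 58 in Sstr2 and 143 in Dusp1. All but that of Dusp1 lie within 100 bases of that start. Other annotated starts lie upstream: the Pcsk1, Zdbf2 and Sst windows are inside the annotated span of their gene. For Scg2, the form of 617 residues starts at base 79440120, upstream of the CRE. In 100-base windows that hold the CRE, 100 bases in Sst, 80 in Scg2, 38 in Zdbf2 and 7 in Pcsk1 lay in annotated exons. The number was 0 in Maff, Sstr2 and Dusp1.

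Bdnf has 7 promoters in the table, none with the palindrome. The 100 bases before the start that carried most Bdnf signal with KCl (chr2:109692336-109692435, plus strand) are shown because they hold the relaxed motif, in capitals.
Bdnf: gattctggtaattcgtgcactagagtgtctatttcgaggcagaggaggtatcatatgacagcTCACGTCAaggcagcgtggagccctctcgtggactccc

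Of the 20 genes with the largest rises, 14 have a promoter in the table. The palindrome was found for 3 of them, Pcsk1, Scg2 and Zdbf2, and, Bdnf aside, not in the 250 bases before the start of Fosb, Npas4, Fos, Nr4a3, Nr4a1, Fosl2, Rgs2, Junb, Egr4 or Brinp1, which says only that those letters are not in that window.

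**Figure D5:**
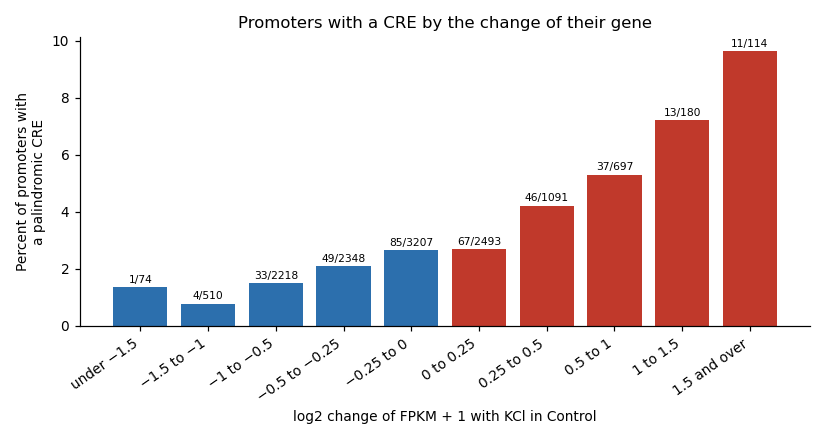
Share of promoters (y axis, percent) with the palindromic CRE in the 250 bases before the start, by the log2 change of the gene with KCl in Control (x axis); counts of promoters with the motif and in the bin stand above the bars. The share is 0.784% at -1.5 to -1 and 9.65% at 1.5 and over.

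The same depolarisation was applied to Rem2 KO neurons, in 2 other pairs of libraries. Of the 314 genes that rose at least 2-fold in Control, 289 also rose there, and of the 553 that fell, 544 also fell, where 49.0% of all genes passed in either direction. The log2 change had the opposite sign in 7 and 2 cases. Over the 812 genes past 2-fold that were above 0 in all 8 libraries, the median ratio of the change in Rem2 KO to that in Control was 0.96. The leading genes had similar values: the change was 4.80 in Rem2 KO against 4.83 in Control for Pcsk1, 4.40 against 4.18 for Fos, 4.06 against 4.24 for Bdnf and 2.44 against 2.65 for Sst.

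A test of the difference between the responses passed for 9 genes (0.0707%), each of which was listed at 0 in both libraries of at least 1 group. The genes tested were chosen by the Control libraries alone, and the microRNA entries among the 9 entered only through those with KCl. Among the 12418 genes above 0 in all 8 libraries 0 passed, with 414 at an unadjusted p under 0.05 and a smallest adjusted p of 0.422 (limma). Equality of the responses is not shown by this, since the spread of 2 libraries per group limits what could be seen.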

How the data were processed

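Values were FPKM per RefSeq transcript and library, deposited by the authors, per the file headers. TopHat, Cufflinks and the build mm10 are named, per the submitters' processing notes, with versions not given in the sources used here. Libraries were made with a TruSeq kit, per the labels' protocols. Groups were taken from the library titles.

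Of 34353 accessions 34015 were matched to a gene. Transcript FPKM were summed per gene, and 302 genes were left out because an accession was repeated or a value missing. Counts and read depth were not used, since the unit is FPKM. An exact 0 can be a failed estimate, so such genes are described as listed at 0.

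Changes were tested with limma 3.58.1 in R 4.3.3 on log2(FPKM + 1) over all 8 libraries, with 4 group means, a term for the replicate number and a variance trend. P-values were adjusted by Benjamini-Hochberg over 12732 genes. An exact permutation test of 2 against 2 libraries cannot go below p = 0.333. The labels do not say what a replicate number marks. Same-numbered libraries deviated together, with correlations of 0.782 to 0.853 over the 6 pairs of groups. Transcript shares were tested the same way on the log2 ratio of a transcript to the rest of its gene. The fits were tested on simulated data. Promoter sequences are from RefSeq (GRCm38.p6) and transcript annotation from GENCODE M21.

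The members and gene lists were chosen with earlier results of these data known. The genes named are the 20 largest rises and 20 largest falls, members of the gene lists with the largest changes, the largest changes in FPKM, the leading transcripts, the smallest p of the interaction, the RGK genes and genes listed at 0 in 1 group. Genes named outside that rule, among them those that did not pass, were chosen after their values were seen. The alternatives were other pseudocounts, filters, scalings and variance models, fits without the replicate term or without a library, and fits of the 4 Control libraries alone. Some genes are not reported here.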

Additional observations from a re-analysis of the deposited data

Results flagged for a closer look

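A difference between the KCl responses of Control and Rem2 KO passed for 9 genes, each given here as the log2 change in Control minus that in Rem2 KO (limma, adjusted over 12732 genes). Igfbp7, a secreted binding protein, differed by -4.21 (adjusted p = 0.000145). It was at 19.998 and 19.2 FPKM in Control and 21.3 and 17.8 FPKM with KCl, and was listed at 0 in both Rem2 KO libraries and at 17.0 and 17.8 FPKM in Rem2 KO with KCl. Surf1, an assembly factor of cytochrome c oxidase, differed by 4.88 (adjusted p = 0.0143) and was listed at 0 only in the Rem2 KO libraries with KCl. Agbl5, a deglutamylase of tubulin, differed by -2.20 (adjusted p = 0.0104) and was listed at 0 only in the Control libraries with KCl.

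The other 6 were microRNA entries. Mir1249 differed by 5.91, and was listed at 0 in Control and at 49.8 and 46.6 FPKM in Rem2 KO. Mir1898, Mir674, Mir93, Mir7063 and Mir218-1 differed by 4.84, 4.78, 4.48, 4.30 and 3.35, and each was listed at 0 in the Control libraries without KCl and in all 4 Rem2 KO libraries. Whether these zeros are failed estimates was not tested. The 6 microRNA entries reached the test only through the Control libraries with KCl, so their differences are not read as results. A gene above 0 only in Rem2 KO libraries could not enter.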

How the results depend on the processing

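Without the replicate block 681 genes rose, 1635 fell and 1 differed between the responses. Trimmed-mean scaling gave 3179 rises of any size and 302 falls past 2-fold, and quantile normalization 241 falls past 2-fold. A pseudocount of 0.1 gave 934 falls past 2-fold. The 9 differing responses became 1 with no filter on low values, 3 without microRNA and small nucleolar entries and 0 among genes above 0 in all 8 libraries. The 1 changed transcript share became 53 with no variance trend, 0 in the 4 Control libraries alone and 0 among transcripts above 0 in all libraries. Leaving out 1 library at a time gave 1115 to 1435 rises, 2799 to 3945 falls, 5 to 13 differing responses and 0 to 0 transcript shares. The lowest counts of rises, 1115 and 1248, came without Control+KCl replicate 1 and 2. The lowest counts of falls, 2799 and 3001, came without Control+KCl replicate 2 and Control replicate 1. Counts past 2-fold without 1 library were 305 to 337 rises and 481 to 690 falls. The cause was not tested. The alternatives without microRNA entries or with genes above 0 only, and the list counts over members that reached 1 FPKM in both groups, were chosen after seeing the data. A minimum of 5 FPKM was not run for transcripts, where it is already the minimum.

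Of the 136 genes named, 8 changed sign under an alternative. None of these passed the test in the reported fit or where its sign changed, though Egr1 passed as a fall without Control replicate 2 (limma, log2 change -0.68, adjusted p = 0.0125). Trimmed-mean scaling gave log2 changes of 0.10 for C1qa, 0.16 for Igfbp7, 0.10 for Kdm5d, 0.14 for Ndn and 0.11 for Pcsk2. Quantile normalization gave log2 changes of 0.17 for C1qa, -0.04 for Dlg4, 0.09 for Igfbp7, 0.23 for Kdm5d and 0.02 for Pcsk2. Upper quartile scaling gave log2 changes of 0.04 for Igfbp7, 0.01 for Kdm5d and 0.02 for Ndn. Without 1 library the changes were -0.16 to 0.07 for C1qa, -0.04 to 0.08 for Dlg4, -0.68 to 0.16 for Egr1, -0.13 to 0.11 for Igfbp7, -0.09 to 0.03 for Kdm5d, -0.09 to 0.02 for Ndn, -0.17 to 0.06 for Pcsk2 and -0.30 to 0.44 for Surf1. Without the replicate block 13 of the 136 lost their call. Leaving out 1 library ended the call of Arc, Dlx1, Gem, Gfap, Id2 and Rrad in at least 1 case (adjusted p = 0.0528 to 0.343), and made one for Egr1, Jun, Npy and Vip.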

Other observations

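Imprinted genes, expressed from 1 parental allele, were listed after their values were seen and so carry no test as a group. Of 21 paternally expressed genes 13 rose and 2 fell (9 and 0 without the replicate term), and of 13 maternally expressed genes 4 rose and 3 fell (0 and 1 without it). Zdbf2 went from 3.94 and 4.73 to 43.0 and 50.6 FPKM, and Nap1l5 from 32.5 and 36.3 to 179 and 236 FPKM. Rasgrf1, an exchange factor for Ras, went from 1.38 and 0.710 to 12.2 and 10.6 FPKM. With 1 Control library under 1 FPKM, Rasgrf1 entered the test only with its KCl libraries, so its rise is not read as a result. Ndn, also paternally expressed, did not pass, at 260.4 and 264 and then 243 and 269 FPKM.

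Y-linked genes moved unequally, and were also listed after their values were seen. Ddx3y, an RNA helicase, went from 6.86 and 7.91 to 38.0 and 35.8 FPKM, a log2 change of 2.18, while its X-linked partner Ddx3x went from 83.8 and 106 to 138 and 168 FPKM, a change of 0.68. Kdm5d did not pass, at 3.49 and 3.85 and then 3.25 and 3.89 FPKM.

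Among genes that share a name stem, 32 of 48 Mrpl genes, for mitochondrial ribosomal proteins, fell and 0 rose as deposited, and 18 fell and 2 rose after trimmed-mean scaling. The falls were 66.7% of them against 35.5% of all genes tested. Over stems with at least 44 tested genes, the share of falls ran from 0 for Mir to that of Mrpl. Zfp, Wdr and Ccdc were at 54.9%, 54.7% and 52.4%.

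In all, 24 genes were listed at 0 in both libraries of 1 group and at 5 FPKM or more in both of the other. Of these 15 were small RNA or predicted genes. Cmc1 was at 21.2 and 18.1 FPKM in Control and listed at 0 with KCl, and Ttc19 was listed at 0 in Control and at 25.0 and 28.7 FPKM with KCl.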
